A study of Homo sapiens with 4 samples.

Results

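Promoter to promoter loops of middle span are pairs of 5 kb bins that HiChIP joined over more than 30 kb and less than 500 kb, with a transcription start of a protein-coding gene within 1 kb of both bins. Among the 24312 loops of this span on chromosomes 1 to 22 in the SMC1-labelled list, 2155 met this rule (8.86%, 95% Wilson interval from 8.51 to 9.23). In the CTCF-labelled list 4855 of 70359 did (6.90%, interval from 6.72 to 7.09). The complete lists held 28012 and 80487 loops. Both lists together gave 5583 distinct promoter to promoter bin pairs, of which 1427 stood in both lists. The starts came from GENCODE release 44 on hg38, and the rule used no measured value besides the presence of a loop.

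The data come from HG00731, a lymphoblastoid cell line (LCL), that is, B cells immortalised with Epstein-Barr virus. SMC1, a subunit of cohesin, was measured by HiChIP after dual cross-linking with formaldehyde (FA) and EGS, a longer cross-linker of proteins, and CTCF by HiChIP after FA alone, each in 2 biological replicates. The lists deposited by the authors hold both replicates pooled. The targets also differ in cross-linking and, by the read totals of the study, in depth. In a difference between the lists, target, cross-linking and depth therefore cannot be told apart. The cells had no other treatment in the labels, and they stand for 1 LCL. Since each target has 1 pooled peak list and 1 pooled loop list, no value below has a spread between replicates, no test was made, and all intervals cover counting error only.

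Cohesin is a ring that extrudes loops of chromatin until it meets a barrier, and CTCF, a zinc finger protein, is the barrier best known, in particular where a pair of its sites face each other. A gene promoter is where RNA polymerase II starts, and many promoters also hold cohesin. Contacts between promoters have been described both between CTCF sites that lie at promoters and between active promoters without CTCF.

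Loop lists are named here by their labels. The length of each labelled list is the one that a table of the study gives for the other target, and the values of both peak sets are therefore given for both lists. Exchanging the names would turn the direction of each comparison between the lists. Loop calling needed a peak of the list's own target in at least 1 anchor. Each of the 2155 SMC1-labelled promoter to promoter loops had a CTCF peak in at least 1 anchor, and each of the 4855 labelled CTCF had an SMC1 peak in at least 1 anchor. Of the CTCF-labelled loops, 158 (3.25%, interval from 2.79 to 3.79) had no CTCF peak at either anchor, whereas no loop of this class in either list lacked an SMC1 peak. Of the other SMC1-labelled loops of this span, 0.0330% of promoter to distal and 0.0153% of distal to distal loops had no SMC1 peak, and each had a CTCF peak. By the rule of loop calling, a loop without a peak of its labelled target goes against the label.

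The peaks were checked against genes that mark the cell type. All 7 B cell markers tested, MS4A1, CD79A and PAX5 among them, had an SMC1 peak within 1 kb of a start, and 5 had a CTCF peak. Such an SMC1 peak is frequent, since 12050 of all 18765 coding genes had one. The like number for CTCF peaks was not counted. Of 5 T cell markers none had an SMC1 peak and 1, CD3D, had a CTCF peak. Of 4 myeloid markers only CD14 had a peak, of both targets, and the 2 erythroid markers on the autosomes had none. A peak at a start is no measure of expression.

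To show the sequences at the anchors of the strongest loops, the best CTCF motif match in the CTCF peak of each anchor is given. A motif of 19 bases was learned from the 3000 strongest CTCF summits on odd-numbered autosomes and read NNGCCACNAGGGGGCGCNN. The match in the strongest CTCF peak of an anchor is shown with 5 bases on either side, 5′ to 3′ along the G-rich strand, with hg38 positions and the strand it lies on. Capitals mark the 19 bases scored. These are the 5 pairs with the most read pairs summed over both lists, followed by the 5 further pairs that held the 3 highest observed over expected of either list.
NDUFB7, left anchor, chr19:14572149-14572177, minus strand: ccgccTGTCCGCGAGGTGACGCCAggcgg
ADGRE3 and ZNF333, right anchor, chr19:14686631-14686659, minus strand: taatcTTACCAGAAGATGGCACTAtaatg
ADCY4, left anchor, chr14:24333779-24333807, plus strand: gcgctCGAGCAGCAGGGGGCGCCAggacc
CBLN3 and KHNYN, right anchor, chr14:24431930-24431958, minus strand: ccctgCCGTCACTAGGGGGAGCTCtcact
CASTOR1, left anchor, chr22:30286986-30287014, minus strand: ctgacTAGCCACCAGGGGGCGCCCcagcc
RNF215, right anchor, chr22:30387495-30387523, minus strand: ctccgCGGCCACCAGGGGGCGCCCgcggc
TINF2, left anchor, chr14:24243051-24243079, plus strand: tttatAAAACAGAAGAGGGCGCCCgccct
DHRS1 and NOP9, right anchor, chr14:24297017-24297045, minus strand: tcaaaCAGACACCAGAGGGCAGCGttgcc
GRHL3, left anchor, chr1:24202025-24202053, plus strand: ggggcTGTCCAGCAGGAGGCACTGctgac
STPG1, right anchor, chr1:24392491-24392519, minus strand: agctgGTGCCACAGGAGGGAGCTCtgggc
VPS35L, left anchor, chr16:19559514-19559542, plus strand: gaaaaTGCCCACAAGAGGTCGCTGttagc
GPRC5B, right anchor, chr16:19886429-19886457, minus strand: aagagCTGCCACCAGGTGACAGTGcccat
CNNM2, left anchor, chr10:102917590-102917618, plus strand: tcatgCTGCCCGCAGGTGGCGCCAcgtga
RPEL1, right anchor, chr10:103244845-103244873, minus strand: catgaCTACCACCAGGAGGCAGTAtggcc
FBLN1, left anchor, chr22:45578929-45578957, plus strand: gcatcTCAGCAGCAGGGAGAAGCCacccc
WNT7B, right anchor, chr22:45979210-45979238, minus strand: ccccgCGGCCGACAGGGGGCAGCAccacg
NDEL1, left anchor, chr17:8410434-8410462, plus strand: aatcaCGGCCAGCAGGTGGCGCTCtaaag
CCDC42, right anchor, chr17:8746114-8746142, minus strand: gcagaCGGCCAGCAGGGGGCGCCAgacga
MYEOV, left anchor, chr11:69292513-69292541, plus strand: ctgagCAGCCGGTAGGTGGCGCTGatggg
CCND1, right anchor, chr11:69643497-69643525, minus strand: tcgtgCAGCCGCTGGAGGGCGCGCgccgc

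In 8 of these 10 loops the sites face each other, with the left site on the plus and the right site on the minus strand. In the NDUFB7 loop and the CASTOR1 loop both sites lie on the minus strand. The left site of the FBLN1 loop is the best match of its peak but scores 6.86 bits, under the 10 bits required of a site below, and the others run from 11.04 bits at NDUFB7 to 22.8 bits at RNF215. The sites do not all lie at a start. The NDUFB7 site is 97 bp and the RNF215 site 98 bp from a coding start, while the VPS35L site is 3802 bp and the right site of the NDUFB7 loop 3382 bp away. By the annotation the sites of ADCY4, CASTOR1, RNF215, DHRS1, GRHL3, STPG1, VPS35L, FBLN1 and CCND1 lie in introns of those genes, that beside ADGRE3 in an intron of ADGRE3, that beside RPEL1 in an intron of NT5C2, and that beside KHNYN in a coding exon of KHNYN. The others lie outside annotated protein-coding genes.

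The loop of NDUFB7, a subunit of mitochondrial complex I, with the bin that holds the starts of ADGRE3, an adhesion receptor, and ZNF333, a zinc finger gene, had the most read pairs of all. Its bins, 115 kb apart on chromosome 19, held 488 read pairs where 25.2 were expected in the CTCF-labelled list, an observed over expected of 19.3. They held 162 where 13.9 were expected, or 11.6, in the SMC1-labelled list. The NDUFB7 anchor had an SMC1 peak with a fold enrichment of 4.87 over the local background and a CTCF peak with one of 6.67, and the other anchor had 6.58 and 10.6. Both lists thus rank this pair among their first 10 in read pairs and in observed over expected.

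ADCY4, an adenylate cyclase, was joined over 100 kb of chromosome 14 with CBLN3 and KHNYN, past 6 other coding starts. This bin pair held 271 read pairs in the SMC1-labelled list, the most of that list, at an observed over expected of 5.81, and 355 at 12.3 in the CTCF-labelled list. CASTOR1, the arginine sensor of mTORC1, was joined with RNF215 over 100 kb of chromosome 22, with 219 read pairs (6.62) and 333 read pairs (11.2). Close to the ADCY4 loop, TINF2, which encodes a protein of the telomere-binding shelterin complex, was joined with DHRS1 and NOP9 over 55 kb, with 111 read pairs (3.79) in the SMC1-labelled list and 399 (6.70) in the CTCF-labelled list. GRHL3, a transcription factor of epithelia, was joined with STPG1 over 190 kb of chromosome 1, with 122 read pairs (8.88) and 370 (15.2). In each of these pairs the observed over expected was higher in the CTCF-labelled list.

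Other pairs were among the 10 with the most read pairs of a list. In the SMC1-labelled list, the bin of JUND, an AP-1 transcription factor, and IQCN was joined over 45 kb with LSM4, an RNA-binding protein of the spliceosome, with 155 read pairs. The bin of FERMT3, the kindlin of blood cells, and STIP1, a co-chaperone, was joined over 100 kb with ESRRA, an orphan nuclear receptor, and CATSPERZ, with 152. SEMA3B, a semaphorin, formed 2 of the 10 loops with the most read pairs, with GNAI2, an inhibitory G protein, at 146 and with GNAT1, the transducin of rods, at 136. Of the CTCF-labelled loops, KHDC4 was joined with ARHGEF2, a guanine nucleotide exchange factor, over 50 kb, with 362 read pairs, and SREBF1, which regulates lipid synthesis, with TOM1L2 over 50 kb, with 263. PCDHGC3, a clustered protocadherin, was among the 10 in both lists, joined with DIAPH1, a formin, with 127 and 285 read pairs.

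The 10 pairs with the highest observed over expected spanned from 115 to 400 kb in the SMC1-labelled list. In the CTCF-labelled list they spanned from 100 to 400 kb. Those named here, which hold the 3 highest values of each list, spanned from 325 to 400 kb. VPS35L, a subunit of the retriever complex, was joined over 330 kb of chromosome 16 with GPRC5B, with 145 read pairs where 3.95 were expected in the CTCF-labelled list, an observed over expected of 36.7, the highest of all. In the SMC1-labelled list it had 54 read pairs and 10.2. NDEL1, a regulator of dynein, was joined with CCDC42 over 335 kb of chromosome 17 at 29.2 in the CTCF-labelled list and 12.8 in the SMC1-labelled list. FBLN1, an extracellular matrix protein, was joined with WNT7B, a Wnt ligand, over 400 kb of chromosome 22 at 26.9 and 15.6. The highest value in the SMC1-labelled list was 16.4, for CNNM2, a magnesium transporter, with RPEL1 over 325 kb of chromosome 10, and it was 15.4 in the CTCF-labelled list. MYEOV and CCND1, which encodes cyclin D1, were joined over 350 kb of chromosome 11 with no coding start between them, at 12.9 with 39 read pairs and at 19.5 with 84. All anchors of these named pairs held peaks of both targets. Among the 10 of the CTCF-labelled list, the PKD1 anchor of the loop with NHERF2 and NPW, at 17.8, had a peak of neither.

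The longest promoter to promoter loops spanned 495 kb. In the SMC1-labelled list this was the bin of ARAP1 and STARD10 with P2RY6, a receptor for nucleotides, with 26 read pairs at an observed over expected of 3.47. In the CTCF-labelled list it was UBE2Q1, a ubiquitin-conjugating enzyme, with ADAM15, a metalloprotease, past 13 coding starts, with 13 read pairs at 5.42. Neither stood in the other list in the same bins. The shortest spanned 35 kb, and the first of them in the SMC1-labelled list joined ZSCAN10 with ZNF213, both zinc finger genes, with 97 read pairs at 2.16. PILRA with ZCWPW1 led those of the CTCF-labelled list, with 210 read pairs at 5.41.

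Promoter to promoter loops had a median span of 110 kb (95% rank interval from 110 to 115) in the SMC1-labelled list and 95 kb (from 90 to 95) in the CTCF-labelled list. The read pairs of a loop ran from 12 to 271 with a median of 23 in the former and from 12 to 488 with a median of 25 in the latter. Of the loops, 71.6% and 72.4% had 1 gene at each anchor, and 2.37% and 2.08% had 3 or more genes at an anchor. Neighbouring bin pairs belong to the same contact in many cases, since the loops fell into 1091 and 2569 clusters of the loop caller.

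Peaks at both anchors were more frequent in promoter to promoter loops than in the other loops of this span. In the SMC1-labelled list, 81.7% (interval from 80.0 to 83.2) had an SMC1 peak at both anchors, against 70.1% (from 69.1 to 71.0) of promoter to distal loops, which have a coding start at 1 anchor, and 63.8% (from 62.9 to 64.6) of distal to distal loops. For CTCF peaks the shares were 70.2% (from 68.2 to 72.1), 59.3% (from 58.3 to 60.3) and 54.8% (from 54.0 to 55.7). The list labelled CTCF kept this order, with SMC1 peaks at both anchors in 84.9%, 74.3% and 66.7% of the 3 classes and CTCF peaks in 57.7%, 49.4% and 45.6%. The order was the same in each of 4 ranges of span for SMC1 peaks in both lists. Promoter anchors are places where many proteins bind and chromatin is open, and the part of this in the difference was not tested.

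**Figure D1:**
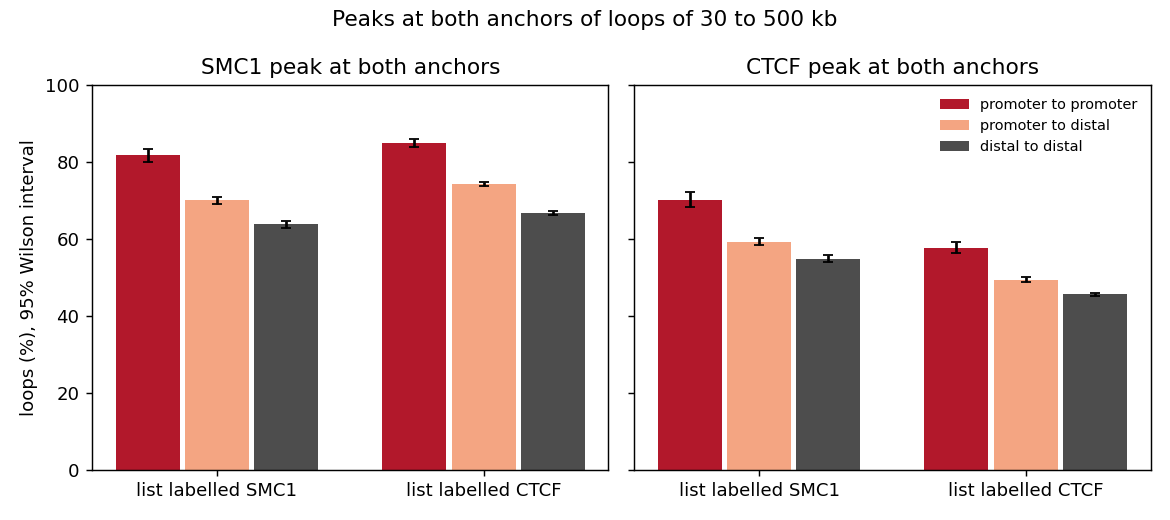
Share of loops of 30 to 500 kb with an SMC1 peak (left) or a CTCF peak (right) at both anchors, in percent with 95% Wilson intervals, for 3 classes of loops in each labelled list. The promoter to promoter bars are highest in each group, from 57.7% for CTCF peaks in the CTCF-labelled list to 84.9% for SMC1 peaks in the same list.

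The distance of the peaks at these anchors from the starts was measured. Each anchor is a 5 kb bin with a start within 1 kb, so some closeness follows from the rule. No other positions in the bins were compared. Of the 2677 anchor bins in the SMC1-labelled list, 86.3% held an SMC1 peak and 77.5% a CTCF peak, and of the 5765 in the CTCF-labelled list 89.0% and 70.6%. Loop calling needed a peak in at least 1 anchor of each loop, so a part of these shares follows from that rule. The share of all promoter bins with a peak is not given here. The summit of the strongest SMC1 peak of a bin was a median of 481 bp (interval from 432 to 525) from the nearest coding start in the SMC1-labelled list and 411.5 bp (from 392 to 439) in the CTCF-labelled list. It lay within 1 kb in 66.6% and 69.6%. The CTCF summits lay within 1 kb in 63.8% and 66.2%.

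The CTCF peaks of promoter to promoter anchors had a lower fold enrichment than those of distal to distal anchors, but not a lower -log10 q-value at every span. Their median fold enrichment was 7.76 (interval from 7.46 to 7.98) against 8.48 (from 8.37 to 8.58) in the SMC1-labelled list, and 7.02 (from 6.82 to 7.21) against 7.86 (from 7.79 to 7.93) in the CTCF-labelled list. The median -log10 q-value was 96.2 (from 89.3 to 105) against 96.2 (from 92.9 to 98.7) and 62.7 (from 58.2 to 67.5) against 65.6 (from 63.9 to 67.2). The value at 250 to 500 kb was higher at promoter to promoter anchors, at 144 (from 127 to 159) against 122 (from 118 to 126) and at 114 (from 96.8 to 127) against 87.0 (from 84.7 to 90.1). The SMC1 peaks had a fold enrichment of 4.93 (from 4.82 to 5.02) against 5.25 (from 5.17 to 5.31) in the SMC1-labelled list. In the CTCF-labelled list they had 4.66 (from 4.61 to 4.72) against 4.63 (from 4.59 to 4.66), and the intervals overlapped.

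The 8 loops without a CTCF peak at either anchor that had the most read pairs were all in the CTCF-labelled list, and they were singled out after the values were seen. Of these, PLA1A, a phospholipase, was joined with COX17, a copper chaperone of mitochondria, over 80 kb of chromosome 3, with 85 read pairs at an observed over expected of 2.99. Its anchors had SMC1 peaks of 3.89 and 3.61 fold. IKZF3, the lymphoid transcription factor Aiolos, in a bin shared with ZPBP2, was joined with the bin of ORMDL3 and LRRC3C over 60 kb, with 78 read pairs at 3.71, and with GSDMB over 50 kb, with 59 at 3.15. SNX20 was joined with CYLD, a deubiquitinase that restrains NF-kappaB, with 74 read pairs at 4.56, and FCMR, the Fc receptor for IgM, with FCAMR, a receptor for IgA and IgM, with 55 at 2.56. Further loops joined the histone genes H2AC15 and H2BC15 with H2AC17, H2BC17 and H3C12, with 66, and TEP1 with the bin of APEX1, OSGEP and PIP4P1, with 61. The list labelled SMC1 holds no promoter to promoter loop of this kind. Each of its loops of this span, in every class, had a CTCF peak in at least 1 anchor. With the names of the lists exchanged, the peak rule of loop calling would require this CTCF peak. The absence would then be no trait of these loops. Whether the names were exchanged was not tested.

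Loops with SMC1 peaks at both anchors and a CTCF peak at neither numbered 120 in the CTCF-labelled list. Their median span was 70 kb (interval from 60 to 80) and their median observed over expected 3.06 (from 2.87 to 3.36). The 2739 with both peaks at both anchors had a median span of 100 kb (from 95 to 100) and 3.59 (from 3.52 to 3.66). At 30 to 60 kb the values were 2.63 (from 2.56 to 2.82; 56 loops) and 2.94 (from 2.84 to 3.02; 671 loops). At 120 to 250 kb they were 4.41 (from 3.69 to 5.32; 25 loops) and 4.23 (from 4.10 to 4.37; 767 loops), which overlap. In the SMC1-labelled list the loops with a CTCF peak at 2 anchors and at 1 anchor differed little, at 3.50 (from 3.44 to 3.60) and 3.62 (from 3.53 to 3.76).

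The observed over expected of promoter to promoter loops had a median of 3.54 (interval from 3.49 to 3.62) in the SMC1-labelled list and 3.58 (from 3.54 to 3.64) in the CTCF-labelled list. It was below that of promoter to distal loops, at 3.95 and 3.84, and of distal to distal loops, at 4.36 and 4.38. Within the range from 30 to 60 kb the classes lay closer together. In the SMC1-labelled list they were 2.82 (from 2.73 to 2.90), 2.98 (from 2.93 to 3.02) and 2.99 (from 2.94 to 3.03), with promoter to promoter loops still below the others. In the CTCF-labelled list they were 2.98, 2.94 and 2.97, with overlapping intervals. At 250 to 500 kb they were 4.89 (from 4.67 to 5.14), 5.33 (from 5.22 to 5.46) and 5.86 (from 5.75 to 5.98) in the former and 5.02 (from 4.70 to 5.26), 5.56 (from 5.43 to 5.66) and 6.30 (from 6.23 to 6.37) in the latter. The classes thus differed most in the longest loops.

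**Figure D2:**
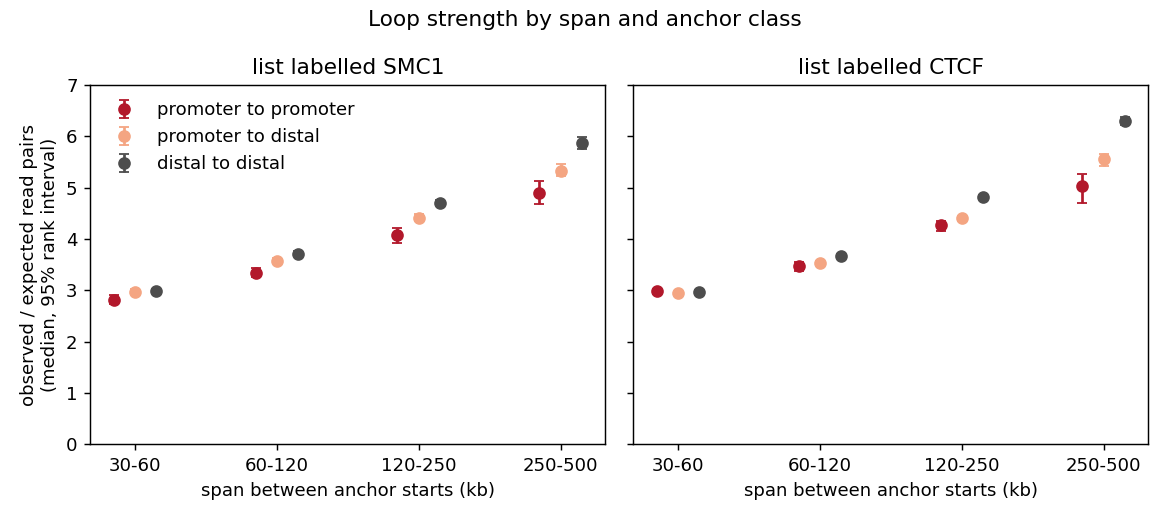
Median observed over expected read pairs (95% rank intervals) against the span between the anchors in kb, for promoter to promoter, promoter to distal and distal to distal loops in each labelled list. The classes lie closest at 30 to 60 kb, where promoter to promoter loops are still lowest in the SMC1-labelled list. At 250 to 500 kb they are lowest in both lists, at 4.89 and 5.02.

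Both lists stop at 12 read pairs and at an observed over expected of about 2, so a pair with few expected read pairs enters only at a high ratio. At 250 to 500 kb the median of expected read pairs was 3.62 for promoter to promoter loops and 2.85 for distal to distal loops in the SMC1-labelled list, and 3.88 and 3.04 in the CTCF-labelled list. The median of read pairs was 17 against 16 and 18 against 18. Among loops with 3 to 5 expected read pairs the ratios were 4.20 (from 4.07 to 4.30) and 4.39 (from 4.35 to 4.44), and 4.08 (from 4.002 to 4.14) and 4.46 (from 4.43 to 4.50). Among those with 15 to 30 they were 2.67 (from 2.55 to 2.78) and 2.83 (from 2.76 to 2.92), and 2.84 (from 2.75 to 2.99) and 2.79 (from 2.75 to 2.85). The differences were smaller at a like number of expected read pairs, a comparison chosen after the values were seen.

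Few pairs of promoter bins were joined. Of the 563986 pairs of bins with a coding start at this span, 0.382% (interval from 0.366 to 0.399) were SMC1-labelled loops and 0.861% (from 0.837 to 0.885) CTCF-labelled loops. At 30 to 60 kb the shares were 0.964% and 3.05%, and at 250 to 500 kb 0.0925% and 0.148%. Where both bins held peaks of both targets, 5.55% and 13.4% of the promoter pairs at 30 to 60 kb were loops, and 0.627% and 0.953% at 250 to 500 kb.

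Set beside pairs of distal bins with the same peaks, the order turned with distance. At 30 to 60 kb, 3.09% (interval from 2.87 to 3.33) of distal pairs were SMC1-labelled loops and 7.85% (from 7.51 to 8.22) CTCF-labelled loops, both below the promoter pairs at 5.55% (from 4.95 to 6.22) and 13.4% (from 12.4 to 14.3). At 250 to 500 kb, 0.973% (from 0.925 to 1.02) and 3.10% (from 3.01 to 3.19) of distal pairs were loops, both above the promoter pairs at 0.627% (from 0.544 to 0.724) and 0.953% (from 0.849 to 1.07). Where both bins had an SMC1 peak and no CTCF peak, promoter pairs at 30 to 60 kb were CTCF-labelled loops in 3.63% (from 2.80 to 4.68) and distal pairs in 1.04% (from 0.934 to 1.15). Whether the loop caller tested each of these pairs is not given in the lists.

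The lists were matched with each other. The same 1427 bin pairs are counted in both directions, so the shares in the same bins differ only by the length of the lists. The match within 15 kb was made against 80487 loops in 1 direction and 28012 in the other, so its shares also depend on length. Of the SMC1-labelled loops, 66.2% (interval from 64.2 to 68.2) were in the CTCF-labelled list in the same bins and 91.2% (from 90.0 to 92.4) within 15 kb at each anchor. Of the CTCF-labelled loops, 29.4% (from 28.1 to 30.7) and 58.5% (from 57.1 to 59.9) were in the SMC1-labelled list. Of the SMC1-labelled loops, the distal to distal ones were matched within 15 kb more often, in 96.3% (from 96.0 to 96.6). Of those labelled CTCF they were matched less often, in 54.5% (from 54.0 to 55.0). Counted as pairs of genes, 1462 were in both lists, which is 72.3% of the 2023 SMC1-labelled pairs and 34.5% of the 4237 labelled CTCF. Here too only the totals differ.

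In the 1427 bin pairs of both lists the observed over expected was higher in the CTCF-labelled list in 927 (65.0%, interval from 62.4 to 67.4), with a median ratio of 1.18 (from 1.14 to 1.20). With the names of the lists exchanged this direction would turn. Across these bin pairs the values of both lists had a Spearman correlation of 0.468 and, on the log2 scale, a Pearson r of 0.530. The bin pairs are not independent, since neighbouring bins share contacts and both lists have the same lower limits. Bin pairs in both lists had more read pairs than those in 1 list, with medians of 27 against 19 in the SMC1-labelled list and 38 against 22 in the CTCF-labelled list.

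**Figure D3:**
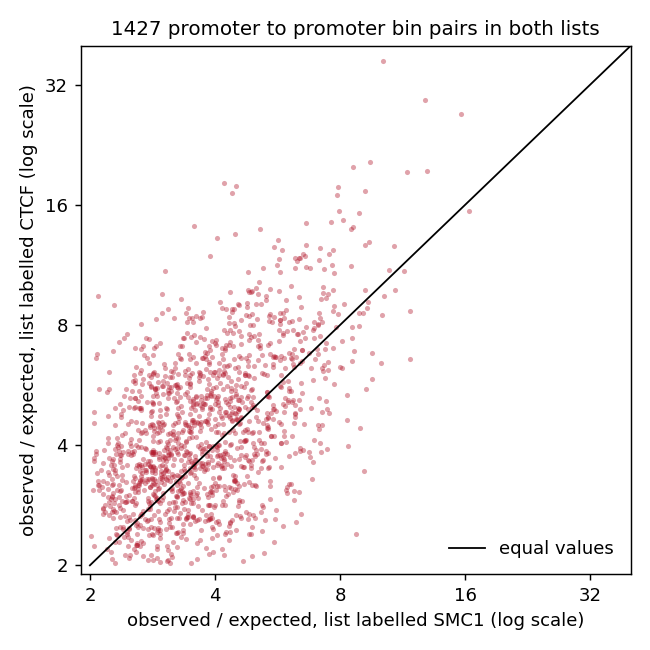
Observed over expected read pairs of the 1427 promoter to promoter bin pairs found in both lists, in the SMC1-labelled list (horizontal, log scale) and the CTCF-labelled list (vertical, log scale), with the line of equal values. In 927 pairs the point lies above the line, and the highest point, VPS35L with GPRC5B, is at 10.2 and 36.7.

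The coding starts between the anchors were counted. Loops whose anchors share no gene passed a median of 3 (interval from 2 to 3) coding starts in the SMC1-labelled list and 2 in the CTCF-labelled list, counting 1 start per gene, and at most 29 and 34. The median for all pairs of promoter bins is not given here. No coding start lay between the anchors in 12.2% (from 10.9 to 13.7) and 21.9% (from 20.7 to 23.1). All pairs of promoter bins gave 6.02% (from 5.96 to 6.09), but 275566 of these 541192 pairs lay at 250 to 500 kb. At 250 to 500 kb the share of the loops was 5.51% (from 3.31 to 9.04) and 10.4% (from 7.78 to 13.8), against 1.72% (from 1.67 to 1.77) of all pairs of promoter bins at that span. At 30 to 60 kb it was 21.2% (from 17.3 to 25.7) and 35.3% (from 32.5 to 38.1), against 26.4% (from 25.9 to 26.9) of all pairs.

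The strands of the genes were read for pairs with 1 strand at each anchor. Genes converge when the left is on the plus and the right on the minus strand, so that both are transcribed into the loop, and diverge in the reverse case. Over all spans 25.7% of 1320 SMC1-labelled pairs converged, 22.95% diverged and 51.4% lay in tandem, and of 2633 CTCF-labelled pairs 26.1%, 22.03% and 51.9% did. All pairs of promoter bins gave 24.3%, 24.04% and 51.7%. The share of converging pairs was 18.7% (interval from 14.4 to 24.01) at 30 to 60 kb and 31.0% (from 26.9 to 35.4) at 120 to 250 kb in the SMC1-labelled list, and 26.1% (from 20.2 to 33.0) at 250 to 500 kb. In the CTCF-labelled list it was 19.4% (from 16.6 to 22.6) at 30 to 60 kb and 33.1% (from 28.0 to 38.7) at 250 to 500 kb. Pairs of promoter bins that both hold an SMC1 peak had 21.1% (from 19.99 to 22.2) at 30 to 60 kb and 24.6% (from 24.1 to 25.1) at 250 to 500 kb. The converging share of the CTCF-labelled list thus lay above that of all such pairs at 250 to 500 kb, and its diverging share, at 19.1% (from 15.0 to 24.003), below their 25.4% (from 24.9 to 25.9).

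**Figure D4:**
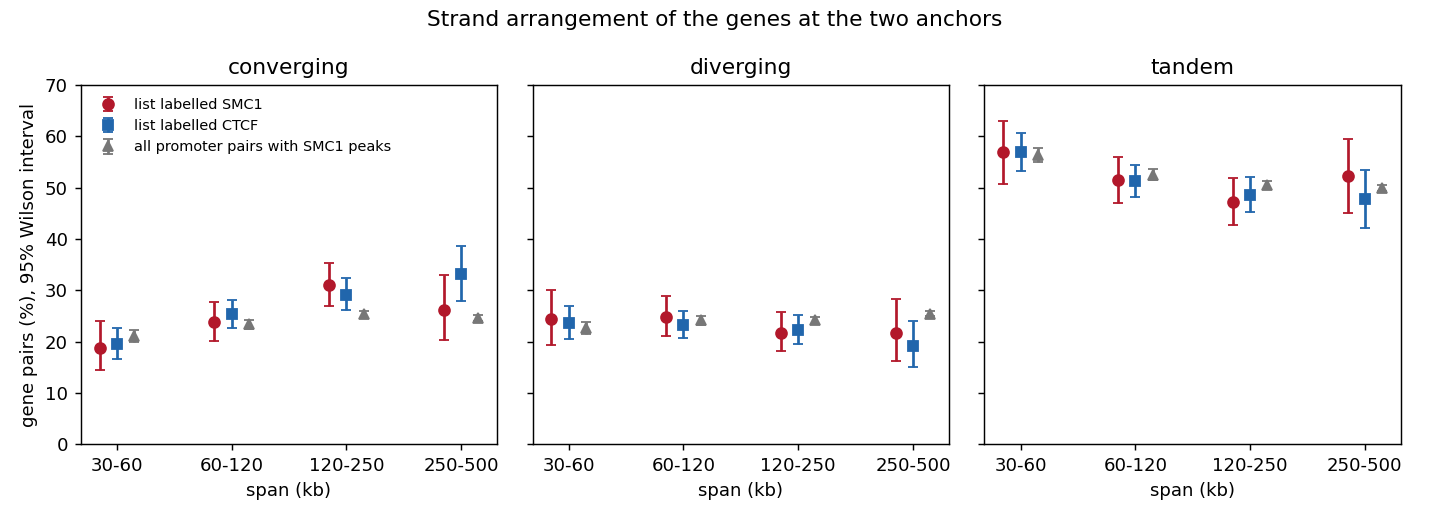
Share of gene pairs that converge, diverge or lie in tandem, in percent with 95% Wilson intervals, against the span in kb, for the loops of each labelled list and for all pairs of promoter bins that both hold an SMC1 peak. The converging share of the CTCF-labelled list goes from 19.4% at 30 to 60 kb to 33.1% at 250 to 500 kb, while that of all such pairs goes from 21.1% to 24.6%.

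CTCF sites at the anchors had a direction of their own. A match of at least 10 bits was found in 66.1% (interval from 64.0 to 68.1) of the CTCF peaks at promoter to promoter anchors in the SMC1-labelled list and in 58.7% (from 57.1 to 60.2) in the CTCF-labelled list. Stretches of the same width 2000 bp beyond the peaks had one in 16.4% and 12.7%. At distal to distal anchors the shares were 73.2% and 68.2%. Both anchors had a match in 720 SMC1-labelled promoter to promoter loops (33.4%) and 1182 labelled CTCF (24.3%).

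In these loops the sites faced each other in 57.2% (interval from 53.6 to 60.8) and 56.8% (from 53.9 to 59.6), pointed the same way in 36.5% and 37.99%, and faced away in 6.25% (from 4.70 to 8.26) and 5.25% (from 4.11 to 6.67). Among distal to distal loops they faced each other in 71.8% (from 70.5 to 73.1) and 71.9% (from 71.0 to 72.7) and away in 1.63% and 0.971%. With matches of at least 14 bits at both anchors, a setting added later, 62.5% (from 56.7 to 68.1) and 63.6% (from 59.0 to 67.9) of promoter to promoter loops and 75.4% and 73.2% of distal to distal loops had facing sites. Chance matches are more frequent beside promoter peaks than beside distal ones, at 16.4% against 11.3% and 12.7% against 9.80%, and their part in this difference was not tested.

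**Figure D5:**
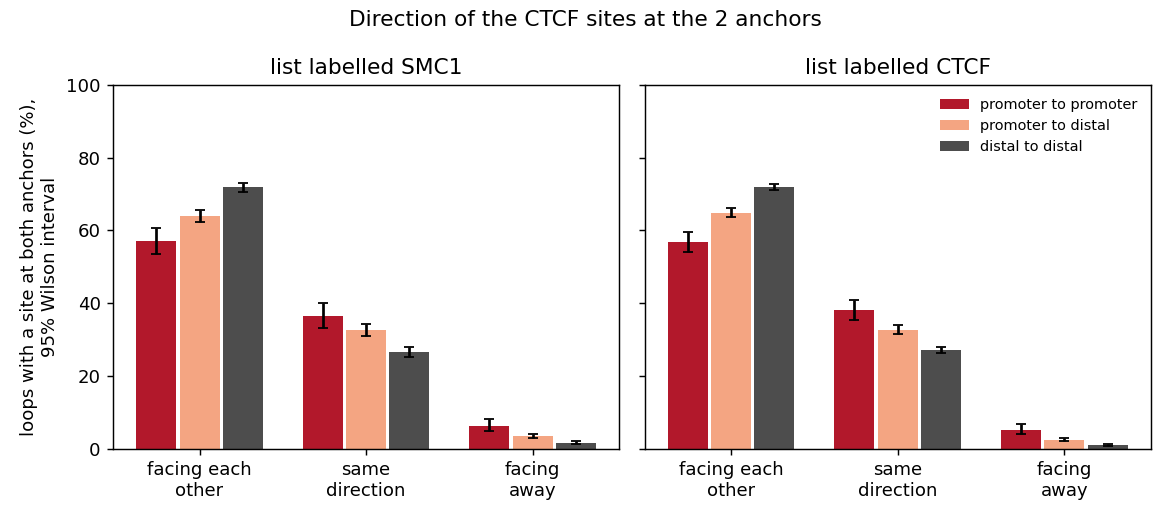
Direction of the best CTCF sites at both anchors, in percent of the loops with a site at both, with 95% Wilson intervals, for the 3 classes of loops in each labelled list. Facing sites make up 57.2% and 56.8% of promoter to promoter loops and 71.8% and 71.9% of distal to distal loops.

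Loops with facing sites had more read pairs over the expected. In the CTCF-labelled list the median was 4.42 (interval from 4.21 to 4.61) for promoter to promoter loops with facing sites, 3.40 (from 3.24 to 3.55) with sites in the same direction and 3.18 (from 2.89 to 3.55) with sites facing away. In the SMC1-labelled list it was 3.70 (from 3.49 to 3.90), 3.26 (from 3.10 to 3.41) and 3.06 (from 2.76 to 3.64), and the first and last intervals overlapped. At 250 to 500 kb facing sites had 6.28 (from 5.27 to 7.09) and sites in the same direction 4.06 (from 3.60 to 4.61) in the CTCF-labelled list. The SMC1-labelled list had 4.99 (from 4.57 to 5.78) and 3.99 (from 3.31 to 4.43) there. At each shorter range of span its intervals for these arrangements overlapped, as at 30 to 60 kb with 2.84 (from 2.63 to 3.04) and 2.55 (from 2.36 to 2.99).

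The direction of the site was set beside the strand of the gene at the same anchor. At left anchors the site pointed into the loop in 76.9% (interval from 73.3 to 80.2) of the plus strand promoters and 67.6% (from 63.5 to 71.5) of the minus strand promoters in the CTCF-labelled list. At right anchors it pointed into the loop in 78.5% (from 74.7 to 81.8) of the minus strand and 66.4% (from 62.4 to 70.3) of the plus strand promoters. Among SMC1-labelled loops the order was the same but the intervals overlapped, with 78.1% (from 73.4 to 82.2) of plus and 70.5% (from 65.1 to 75.4) of minus strand promoters at left anchors, and 75% (from 69.8 to 79.5) of minus and 66.6% (from 61.1 to 71.6) of plus strand promoters at right anchors. Facing sites were found in 67.1% (from 60.8 to 72.9) of 228 loops with converging genes, in 59.7% (from 55.1 to 64.1) of 449 with tandem genes and in 46.2% (from 39.4 to 53.2) of 199 with diverging genes. The list labelled SMC1 had 66.9% (from 58.8 to 74.1) of 142, 57.0% of 293 and 49.2% (from 40.7 to 57.8) of 128. Loops of the same cluster share anchors, so these loops are not independent.

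One promoter per gene was read, from 250 bases before to 50 after its canonical start on hg38. A gene counted as looped by any of its coding starts, so the canonical start need not lie at the anchor. With canonical starts alone, 1205 of the 2155 SMC1-labelled and 2827 of the 4855 CTCF-labelled loops remained. The median GC content was 66.0% for genes in SMC1-labelled promoter to promoter loops and 65.3% for those labelled CTCF, against 63.8% for all coding genes, 66.0% for those with an SMC1 peak within 1 kb of a start and 61.7% for the 9914 genes in no loop of this span. Genes with a start in promoter to distal loops only had 66.7% in both lists. Short motifs were searched on both strands as exact letters. CCGGAAG, the core bound by ETS factors, was in 18.7% (interval from 17.1 to 20.4) and 18.97% (from 17.9 to 20.1) of the promoters of genes in promoter to promoter loops. It was in 14.2% of those of genes in promoter to distal loops only in either list, and in 14.1% (from 13.7 to 14.7) of all coding promoters. AAGATGG, the core bound by YY1, was in 7.87% (from 6.83 to 9.05) and 8.09% (from 7.33 to 8.91), in 5.98% and 5.63%, and in 6.37% of all. Promoters of coding genes with an SMC1 peak within 1 kb of any start had 19.1% and 7.47%. The shares for genes in SMC1-labelled loops were 18.7% and 7.87%.

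CCAAT, bound by NF-Y, was in 35.6% and 37.1% of the promoters of genes in promoter to promoter loops. It was in 35.8% of all and 36.1% of those of genes with an SMC1 peak. TGACGTCA, the cAMP response element, was in 3.14% and 3.15%, against 2.75% and 3.37%. ACTACAA, part of the site of ZNF143, was in 3.89% (interval from 3.17 to 4.77) and 3.78% (from 3.27 to 4.37) against 2.98% (from 2.75 to 3.24) of all and 3.45% (from 3.14 to 3.79) of those with an SMC1 peak, which overlaps both. TATAAA from 50 to 15 bases before the start was in 2.96% (from 2.34 to 3.74) and 2.62% (from 2.20 to 3.13) against 4.18% (from 3.91 to 4.48) of all and 2.35% of those with an SMC1 peak. A match of letters is no evidence of binding.

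The 2155 SMC1-labelled loops held starts of 2262 coding genes, 12.1% of the 18765 on chromosomes 1 to 22, and those labelled CTCF of 4576, or 24.4%. Of these genes 59.8% and 54.3% had 1 partner gene. The genes formed 591 and 1229 connected groups, 248 and 507 of them a single pair, and the largest held 22 genes on chromosome 9 and 26 genes on chromosome 17.

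Some genes had many partners. PTK6, a non-receptor tyrosine kinase on chromosome 20, had 12 partners in the SMC1-labelled list, among them HELZ2, RTEL1, STMN3 and TPD52L2, and 10 in the CTCF-labelled list, of which 9 were the same. Its 12 SMC1-labelled loops had from 12 to 39 read pairs, at an observed over expected from 2.57 to 6.88. DHRS13, a dehydrogenase on chromosome 17, also had 12, among them SUPT6H, a histone chaperone of elongation, RPL23A and TRAF4, with from 17 to 93 read pairs, and 7 of these partners were found in the CTCF-labelled list. TMEM95, a sperm membrane protein on chromosome 17, led the CTCF-labelled list with 15 partners, among them EIF4A1, an RNA helicase of translation, SENP3 and SOX15, with from 12 to 68 read pairs. CDC42BPG, a kinase on chromosome 11, had 9 and 11 partners, 8 of them in both lists. ZNF20 on chromosome 19 had 11 partners in the CTCF-labelled list, 9 of them zinc finger genes, with up to 182 read pairs.

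IKZF3 had 4 partners in the SMC1-labelled list and 11 in the CTCF-labelled list, and all 4 were among the 11. They included ERBB2, a receptor tyrosine kinase, GRB7, an adaptor protein, MIEN1, PGAP3, STARD3, PSMD3, a subunit of the proteasome, and the gasdermins GSDMA and GSDMB. Its 12 CTCF-labelled loops had from 15 to 78 read pairs and an observed over expected from 2.23 to 3.93, over 50 to 235 kb.

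Of 25 B cell genes on these chromosomes, 7 had a start in SMC1-labelled promoter to promoter loops (28.0%, beside 12.1% of all coding genes) and 9 in those labelled CTCF (36.0%, beside 24.4%). CD22, an inhibitory lectin of B cells, was joined with USF2 over 65 kb in both lists, with 19 and 45 read pairs. CD79A, a chain of the B cell receptor, was joined with RABAC1 over 80 kb, with 16 and 21. SPIB, an ETS factor of B cells, was joined with NR1H2, an oxysterol receptor, with 19 read pairs in the SMC1-labelled list, and with NAPSA, with 59, in the CTCF-labelled list. POU2AF1, the coactivator OCA-B, was joined with POU2AF3 in both lists, by 1 loop in the SMC1-labelled and 2 in the CTCF-labelled list. Those with the most read pairs spanned 150 kb with 12 and 80 kb with 24. The loops with these read pairs had an observed over expected between 2.02 and 3.29.

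In 1 list only, SPI1, the ETS factor PU.1, was joined with SLC39A13 in the SMC1-labelled list, with 37 read pairs, and CD80, a costimulatory ligand, with PLA1A in the CTCF-labelled list, with 154. CD86, its relative, was joined with ILDR1, with 36, and MS4A1, which encodes CD20, with MS4A14, with 16, both in the CTCF-labelled list. The other B cell genes, PAX5, EBF1, CD79B, BLK, BLNK, SYK, LYN, CD40, CD83, IRF4, IRF8, IKZF1, BCL6, BACH2 and PRDM1, had no promoter to promoter loop in either list. With promoter to distal loops counted, 19 of the 25 (76.0%) had a loop of this span in each list, beside 23.5% and 45.4% of all coding genes.

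Of 11 genes of NF-kappaB signalling, 3 had a promoter to promoter loop labelled SMC1 (27.3%, beside 12.1% of all coding genes) and 5 one labelled CTCF (45.5%, beside 24.4%). NFKBIA, the inhibitor that retains NF-kappaB in the cytoplasm, was the gene in both, joined over 115 kb with PSMA6, a subunit of the proteasome, with 20 read pairs at 4.95 and 47 at 3.81. NFKB2 was joined with GBF1, with 27 read pairs, and NFKBIB with MRPS12, with 52, in the SMC1-labelled list. RELA was joined with MAP3K11, with 17 read pairs, RELB with CLASRP, with 41, NFKBIE with AARS2, with 27, and TRAF1 with PHF19, with 35, in the CTCF-labelled list.

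Of 11 genes of cohesin and CTCF, 2 had a promoter to promoter loop labelled SMC1 (18.2%, beside 12.1% of all coding genes) and 4 one labelled CTCF (36.4%, beside 24.4%). CTCF itself was joined with CARMIL2, a regulator of actin in lymphocytes, over 80 kb, with 57 read pairs at 3.83 in the SMC1-labelled list and 104 at 5.34 in the CTCF-labelled list. PDS5A, a regulator of cohesin release, was joined with UBE2K over 280 kb, with 25 at 3.99 and 55 at 6.11. PDS5B was joined with KL, which encodes klotho, over 430 kb, with 36 read pairs, and SMC3 with SMNDC1, a splicing factor, over 260 kb, with 14, both in the CTCF-labelled list. Genes for ribosomal proteins had a promoter to promoter loop in 18 of 81 (22.2%, beside 12.1%) and 30 of 81 (37.0%, beside 24.4%), and no loop joined a pair of them.

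Pairs of the same family, by a list of families or by a shared letter stem of the symbol, made up 2.52% (interval from 1.92 to 3.30) of the SMC1-labelled gene pairs and 5.12% (from 4.50 to 5.83) of those labelled CTCF. All pairs of promoter bins gave 7.77% (from 7.63 to 7.91), and pairs of bins that both hold an SMC1 peak, a comparison chosen after the values were seen, gave 3.31% (from 3.19 to 3.43). At 30 to 60 kb the shares were 2.32% (from 1.23 to 4.35), 6.11% (from 4.86 to 7.66) and, with SMC1 peaks, 6.91% (from 6.33 to 7.53). At 250 to 500 kb they were 2.57% (from 1.25 to 5.22), 4% (from 2.48 to 6.40) and 1.96% (from 1.83 to 2.10). The authors' filter on mapping quality can drop reads from near-identical copies, so contacts within such families may be undercounted. The part of this in the shares was not tested.

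Of 549 zinc finger genes, 69 (12.6%, beside 12.1% of all coding genes) had a promoter to promoter loop labelled SMC1. For the CTCF label it was 169 (30.8%, beside 24.4%). They formed 27 of the 51 SMC1-labelled family pairs, in 26 loops, and 103 of the 217 labelled CTCF, in 89 loops. Of their pairs 2271 were possible, while all genes formed 2023 and 4237 of 146919 possible pairs. Of these loops 23 and 67 lay on chromosome 19, and the number of possible zinc finger pairs there is not given here. ZNF763 and ZNF20 had the most read pairs in the CTCF-labelled list, with 182 at 13.9, and ZSCAN10 and ZNF213 in the SMC1-labelled list, with 97 at 2.16. Their loops had CTCF peaks at both anchors in 21 of 26 and 63 of 89, and SMC1 peaks in 25 of 26 and 87 of 89.

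Of 74 histone genes, 5 (6.76%, beside 12.1% of all coding genes) had a promoter to promoter loop labelled SMC1. For the CTCF label it was 24 (32.4%, beside 24.4%). Those for the core and linker histones on chromosome 6 formed 33 of 528 possible histone pairs in 7 CTCF-labelled loops. Each of these loops had SMC1 peaks at both anchors and none had CTCF peaks at both, with from 36 to 105 read pairs and an observed over expected from 2.36 to 3.79. The strongest joined the bin of H2AC6 and H2BC4 with that of H1-4 and H2BC5, with 105 read pairs at 3.04. The list labelled SMC1 held 1 such loop, of H2AC14 and H2BC14 with H2AC17, H2BC17 and H3C12, with 26 read pairs at 4.36.

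Of 40 interferon-induced genes, 24 had a promoter to promoter loop labelled CTCF (60%, beside 24.4% of all coding genes) and 6 one labelled SMC1 (15%, beside 12.1%). OAS1 was joined with OAS3, both synthetases of the antiviral 2-5A signal, with 89 read pairs at 2.90 and 34 at 2.91. IFIT3 was joined with IFIT5, with 44 read pairs, and APOBEC3D with APOBEC3H, both cytidine deaminases that restrict retroviruses, with 40, in the CTCF-labelled list. Of the 13 loops between such genes in that list, 4 had CTCF peaks at both anchors and 11 SMC1 peaks.

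Smaller families had 1 or a few pairs. In the CTCF-labelled list alone, HOXB2 was joined with the bin of HOXB3 and HOXB4, with 50 read pairs, TNFRSF8, which encodes CD30, with TNFRSF1B, with 49, and SERPINB2 with SERPINB8, with 51. GIMAP8 was joined with GIMAP5, with 14, IL18R1 with IL18RAP, the chains of the interleukin 18 receptor, with 18, and OR51V1 with OR51M1, olfactory receptors near the beta-globin genes, with 42. Keratins, HLA genes, clustered protocadherins, Fc receptors and the SLAM family formed no pair among themselves in either list. By symbol stem, TRIM34 and TRIM6 were joined with TRIM22 and TRIM5, and ICAM1 with ICAM3, in the CTCF-labelled list, and PARP9 with PARP14 and CASP10 with CASP8 in both.

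In 141 SMC1-labelled loops (6.54%) and 508 labelled CTCF (10.5%) both anchors held starts of the same gene, so that the loop joined alternative annotated promoters. They fell on 83 and 294 genes. DZIP1L, a protein of the ciliary base, had the most read pairs of the kind in the CTCF-labelled list, with 276 at 8.57 over 50 kb, and 108 at 2.98 in the SMC1-labelled list. ERCC1, an endonuclease subunit of DNA repair, had the most in the SMC1-labelled list, with 121 at 3.06 over 50 kb, and 161 at 4.78 in the other. ARAP1, POU2F3, an octamer-binding transcription factor, and BCL2, the inhibitor of apoptosis, had 196, 202 and 184 read pairs in the CTCF-labelled list and 111, 97 and 67 in the SMC1-labelled list. PIK3CD, the leukocyte PI3 kinase, had 10 loops of this kind in the CTCF-labelled list, more than the other genes, and CHD9, a chromatin remodeller, led the SMC1-labelled list with 6.

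Chromosome 19, the most gene-dense, held 387 of the SMC1-labelled loops (18.0%) and 740 of those labelled CTCF. Promoter to promoter loops made up 16.8% and 19.7% of its loops of this span, against 2.37% and 3.02% on chromosome 13, where the SMC1-labelled share stands for 6 loops. Among all pairs of promoter bins the shares joined were closer, at 0.494% and 0.945% on chromosome 19 and 0.132% and 0.771% on chromosome 13. Across chromosomes the latter share ran from 0.117% on chromosome 21 to 0.539% on chromosome 12 in the SMC1-labelled list, and from 0.619% on chromosome 21 to 1.13% on chromosome 20 in the CTCF-labelled list.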

How the data were processed

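The deposited pooled lists of 2 HiChIP targets in the HG00731 LCL, SMC1 and CTCF, were analysed, each made from 2 biological replicates. The members and gene lists were chosen with earlier results of these data known. Alignment by the authors used BWA-MEM and hg38, followed by a filter on mapping quality and removal of duplicates. Peaks were called without input by MACS3, version 3.0.1 per the submitters' processing notes. The deposited fold enrichment of a peak is a ratio of its summit to the local background, and peak significance was deposited as the -log10 q-value. Each loop, a pair of 5 kb bins, carries a deposited raw count of read pairs and a deposited signal, the number expected by the regression of MAPS. Depth per replicate is not given in the sources used here. The loop counts sum to 788356 and 2666327 read pairs in the lists labelled SMC1 and CTCF.

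From these, observed over expected is the count divided by the expected number. Starts of protein-coding transcripts came from GENCODE release 44 (18765 genes, 40917 bins). A peak belonged to an anchor if it overlapped it by at least 1 bp, and the one with the highest -log10 q-value was used. The CTCF motif was learned by expectation maximization from 100 bp on either side of the summits with sequences 1000 bp away as control, a setting chosen after earlier ones had failed to recover a motif, and peaks were scanned in full. Shares carry Wilson and medians rank intervals at 95%. No test was made, since each target has 1 pooled list. Alternatives changed the start window (inside the anchor, within 2.5 kb), the transcript (Ensembl canonical), the peak threshold (-log10 q of at least 10) or the matching tolerance. Pairs of bins that both hold an SMC1 peak, sites of at least 14 bits and loops with a like expected number were added after the values were seen.

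Genes named are, per list, the 10 pairs with the most read pairs and the 10 with the highest observed over expected, the 10 genes with the most partners, the 3 longest and 3 shortest loops, the strongest pair of each family, the loops of the gene lists with the most read pairs, and the 5 pairs with the most read pairs summed over both lists; not each is printed. Loops without CTCF peaks, within one gene, and further pairs of families were named after their values were seen. Procedures were tested on simulated data. The tools were pandas 2.3.3, Matplotlib 3.10.9, SciPy 1.17.1 and NumPy 2.4.6 under Python 3.11.15. Some named genes are not reported here.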

Additional observations from a re-analysis of the deposited data

How the results depend on the processing

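No paired analysis was possible because the lists pool both replicates, and leaving out a replicate was not run for the same reason. With Ensembl canonical starts alone 1205 SMC1-labelled and 2827 CTCF-labelled loops remained, and with the loops at or above the median of read pairs in their list 1294 and 2781, where the SMC1-labelled observed over expected was 3.35. SMC1 peaks at both anchors stood in 85.3% and 87.8% with starts inside the anchors, 88.4% and 90.6% with canonical starts, 74.5% and 77.0% with peaks of a -log10 q of at least 10, and 71.0% and 73.3% with the summit inside the anchor. For CTCF peaks these shares were 72.8% and 60.8%, 75.9% and 61.3%, 53.9% and 44.2%, and 61.6% and 51.0%. In the same bins 66.2% and 29.4% were matched in the other list, and within 5 kb 82.4% and 48.9%. Listed families alone gave 1.78% and 3.78% of gene pairs. Of the promoter bin pairs with a peak in a bin 0.509% and 1.15% were looped, and with canonical starts 0.552% and 1.29%. In all, 31 values moved and 25 stayed within their counting error or, for counts of loops, within 1.5 times. The cause was not tested. The 12 read pairs that a listed loop needs limit what long, weak contacts can show.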
